A study of Homo sapiens with 12 samples.

Results

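Arginine deprivation was studied in 2 human B-cell leukaemia lines, and the genes described here are 10 genes that carry amino acid signals to the kinase complex mTORC1 or restrain it. They are SESN2, SESN3, CASTOR1, RRAGC, RRAGD, FLCN, FNIP1, RNF152, DDIT4 and DEPTOR. The genes were picked by symbol, through the Ensembl identifiers of a table of read counts for 60664 genes. All 10 were found there, and all 10 passed the filter on low counts that was applied before testing. They were picked with earlier results of the same table known. Their fold changes and adjusted p-values, which come from a fit over all tested genes, therefore describe single genes and give no support for the group as a whole.

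The lines were TOM-1, which carries the Philadelphia chromosome and its BCR-ABL1 fusion, and RS4;11, which carries a KMT2A rearrangement. The labels give both as wild-type lymphoblasts, and both were kept in medium with serum and entered the experiment in log phase. Cells of each line spent 24 h either in control culture or in 1000 ng/ml of ADI-PEG20, a pegylated arginine deiminase that converts arginine in the medium to citrulline. Poly(A) RNA was sequenced from 3 libraries in each of the 4 groups. With 1 line for each leukaemia subtype, line and subtype cannot be told apart. The labels do not say that the 3 libraries of a group came from separate cultures, so p-values measure the spread between these libraries, which may be technical.

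mTORC1 is a kinase complex that promotes protein synthesis and holds back autophagy, and amino acids switch it on at the lysosome through heterodimers of the Rag GTPases. SESN2 encodes a Sestrin that senses leucine, and CASTOR1 is an arginine sensor. Both of these sensors act on GATOR2, which opposes GATOR1, the GTPase-activating complex for the RagA or RagB side. FLCN with FNIP1 or FNIP2 is the GTPase-activating complex for the RagC or RagD side, the RagC and RagD proteins being the products of RRAGC and RRAGD. A separate input runs through the TSC complex and RHEB, where DDIT4 acts as a brake, and DEPTOR binds mTOR itself.

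Total counts ran from 18958144 to 35956959 per library. TOM-1 control replicate 3 stood apart, with 14963 genes detected where the other 11 libraries had 19857 to 21997, so the calls of the 10 genes are given with it and without it. Ribosomal protein genes took 19.8% of its counts, against 8.96% and 9.22% in the other TOM-1 controls, 5.91% to 6.06% in treated TOM-1 and 8.79% to 9.91% in RS4;11, and their part in the results was not tested. Against the mean of the other TOM-1 controls its level was lower for FNIP1 (log2 ratio -1.55) and SESN3 (-1.32) and higher for RRAGC (0.40) and SESN2 (0.30). All 8 B lymphoblast markers lay above the floor of 3 counts per library in every group, and HOXA9 and MEIS1, which mark leukaemias with a KMT2A rearrangement, were at 0 in TOM-1. T cell markers summed to at most 0.319 CPM (counts per 1000000, on TMM-scaled library sizes) and erythroid markers to at most 0.478 CPM. Myeloid markers summed to 9.79 to 22.3 CPM in TOM-1 and 0.768 to 2.44 CPM in RS4;11, with ELANE at 0 throughout, and their part in the results was not tested.

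In TOM-1, 7 of the 10 genes were higher with ADI-PEG20 and none was lower, by edgeR's quasi-likelihood test at an adjusted p under 0.05. These were SESN2, FNIP1, FLCN, DDIT4, RRAGC, RRAGD and RNF152. Over all 17349 genes tested, 31.9% were called in this comparison, and 15.9% were called higher. Without TOM-1 control replicate 3 the same 7 genes were called, against 41.6% of 18321 genes, of which 21.8% in all were higher. The median log2 fold change of the 10 genes was 1.43 against 0.05 over all genes tested, and 1.50 against 0.00 without that library. In bulk RNA a change in the share of cells that express a gene and a change in RNA per cell cannot be told apart.

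**Figure D1:**
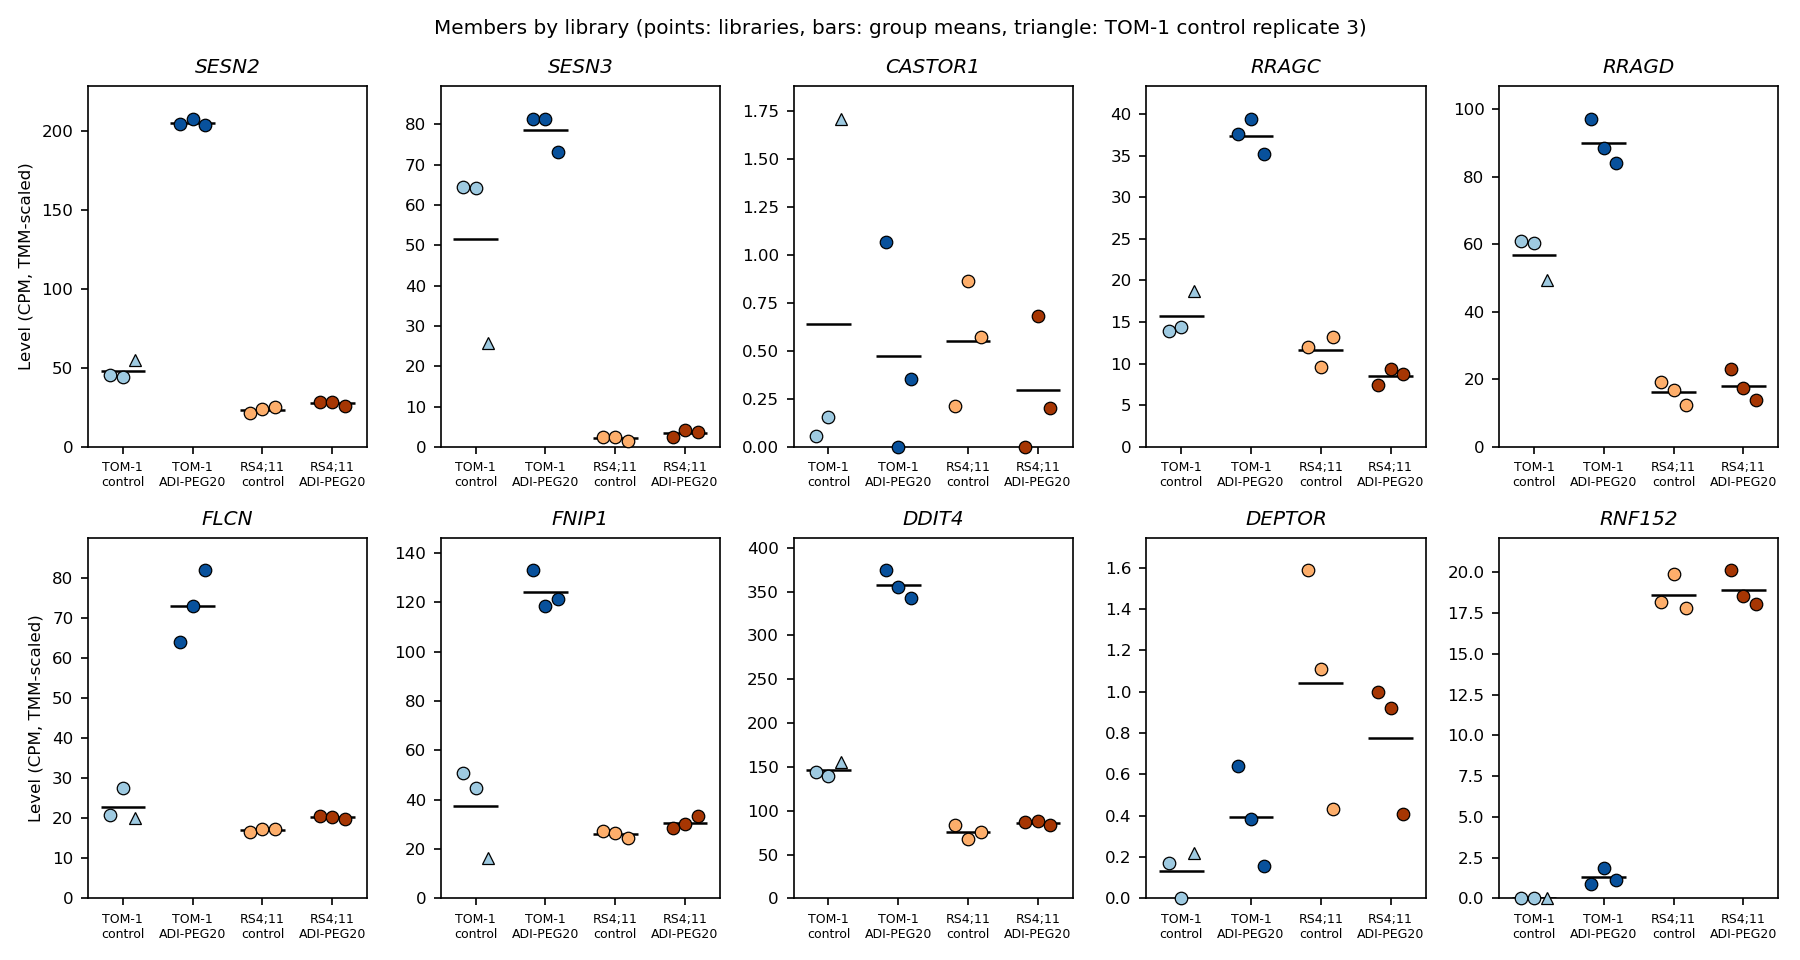
Level of each of the 10 genes in every library, in TMM-scaled CPM on the vertical axes, by line and treatment on the horizontal axes (points are libraries, bars are group means, the triangle is TOM-1 control replicate 3, and each panel has its own scale). The treated TOM-1 libraries lie above all TOM-1 controls for 8 genes, and RNF152 is at 0 in TOM-1 control.

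SESN2 (ENSG00000130766, chromosome 1, 28259527 to 28282491, plus strand), a leucine sensor, stood at 45.2, 44.2 and 55.2 CPM in the TOM-1 controls. In the treated TOM-1 libraries it stood at 204, 207 and 203 CPM. In RS4;11 it stood at 21.6, 23.8 and 24.9 CPM in control and at 28.5, 28.2 and 26.1 CPM with ADI-PEG20. Treated libraries lay above all controls in both lines, with a gap in TOM-1 that was many times the spread of either group. The log2 fold change was 2.09 (SE 0.12, adjusted p = 1.22e-06) in TOM-1, and 2.19 (SE 0.08, adjusted p = 9.11e-15) without TOM-1 control replicate 3. The RS4;11 change was 0.24 (SE 0.12), with an adjusted p of 1, and of 0.175 once that library was left out, neither of which passes. SESN2 had the largest fitted change among the members with counts in every TOM-1 library.

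The 250 bases before the SESN2 start in RefSeq (GRCh38.p14) are shown because of this change, with CCAAT boxes in capitals. A CCAAT box on the minus strand reads ATTGG on the strand printed.
SESN2 chr1:28259268-28259517, plus strand: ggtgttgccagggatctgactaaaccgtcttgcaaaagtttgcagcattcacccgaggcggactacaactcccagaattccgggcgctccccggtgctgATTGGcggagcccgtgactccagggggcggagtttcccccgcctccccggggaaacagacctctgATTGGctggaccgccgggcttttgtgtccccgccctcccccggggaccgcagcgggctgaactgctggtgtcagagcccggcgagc

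SESN3 (ENSG00000149212, chromosome 11, 95165513 to 95232541, minus strand), a paralog of SESN2, was not called in TOM-1 in the full fit. Its levels in TOM-1 were 64.5, 64.3 and 25.8 CPM in control and 81.3, 81.4 and 73.2 CPM with ADI-PEG20. In RS4;11 they were 2.53, 2.47 and 1.43 CPM in control and 2.51, 4.08 and 3.64 CPM with the enzyme, from 30 to 84 reads per library. All treated TOM-1 libraries lay above all TOM-1 controls, but the distance to replicates 1 and 2 was small and the low value came from replicate 3. The log2 fold change in TOM-1 was 0.61 (SE 0.31, adjusted p = 0.154), and 0.28 (SE 0.13, adjusted p = 0.0857) without replicate 3. It was called higher by limma voom with sample weights (0.31, adjusted p = 0.00577), and with replicate numbers as a block when replicate 3 was left out (0.34, adjusted p = 0.0414). In RS4;11 it was 0.65 (SE 0.36, adjusted p = 1), with overlapping groups. SESN3 differed between the lines far more than between treatments, at 51.5 ± 22.3 CPM in TOM-1 control and 2.15 ± 0.617 CPM in RS4;11 control (SD, n = 3). That log2 difference was 4.58 (SE 0.37, adjusted p = 1.4e-06), and 4.89 (SE 0.17, adjusted p = 2.92e-16) without TOM-1 control replicate 3.

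CASTOR1 (ENSG00000239282, chromosome 22, 30285117 to 30289627, minus strand), an arginine sensor, was barely detected in either line. Its raw counts in TOM-1 were 2, 4 and 31 in control and 25, 0 and 9 with ADI-PEG20. In RS4;11 they were 5, 21 and 12 in control and 0, 14 and 4 with the enzyme. With all libraries in use the groups overlapped, and the highest count came from TOM-1 control replicate 3. The fitted log2 fold change in TOM-1 was -0.39 (SE 1.50, adjusted p = 0.897) in the full fit and 2.13 (SE 1.52, adjusted p = 0.297) once that library was left out, so no direction can be read at this depth. The annotation also gives 46% of the exonic bases of CASTOR1 to the gene AC004997.1 on the same strand. A change of CASTOR1 was not detectable at this depth. SLC38A9, another amino acid sensor, was tested with the other pathway genes and was not called in either line with all libraries.

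Of the Rag GTPases, RRAGC (ENSG00000116954, chromosome 1, 38838198 to 38859823, minus strand) stood at 14.0, 14.4 and 18.7 CPM in the TOM-1 controls and at 37.6, 39.4 and 35.2 CPM with ADI-PEG20. Its RS4;11 levels were 12, 9.64 and 13.2 CPM in control and 7.45, 9.38 and 8.71 CPM with the enzyme. The treated libraries lay above all controls in TOM-1 and below all controls in RS4;11. In TOM-1 the log2 fold change was 1.26 (SE 0.17, adjusted p = 2.48e-04), and 1.40 (SE 0.15) without TOM-1 control replicate 3. The RS4;11 change was -0.45 (SE 0.17), at an adjusted p of 1, and of 0.159 without that TOM-1 library. RRAGC shares 22.9% of its exonic bases with AL139260.2 on the same strand.

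RRAGD (ENSG00000025039, chromosome 6, 89364636 to 89412270, minus strand), the paralog of RRAGC, had the smallest change of the 7 called genes. It stood at 60.9, 60.3 and 49.3 CPM in the TOM-1 controls and at 97.2, 88.4 and 84.1 CPM in the treated libraries. In RS4;11 its levels were 19.3, 16.8 and 12.3 CPM in control and 23.0, 17.5 and 13.9 CPM with ADI-PEG20. The TOM-1 groups were separate and the RS4;11 groups overlapped. In TOM-1 it rose by 0.66 on the log2 scale (SE 0.20, adjusted p = 0.0238), and by 0.57 (SE 0.15, adjusted p = 0.00393) without TOM-1 control replicate 3. Leaving out treated TOM-1 replicate 1, 2 or 3 lost the call, with an adjusted p of up to 0.0968.

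FLCN and FNIP1 encode the partners of the complex that acts on RagC and RagD, and both rose in TOM-1. FLCN (ENSG00000154803, chromosome 17, 17212212 to 17237188, minus strand) stood at 20.8, 27.5 and 20.1 CPM in the TOM-1 controls and at 64.0, 72.8 and 81.8 CPM with ADI-PEG20. The RS4;11 libraries had 16.6, 17.3 and 17.2 CPM in control and 20.4, 20.2 and 19.8 CPM with the enzyme. Treated libraries lay above all controls in both lines, by a wide margin in TOM-1 and a narrow one in RS4;11. The log2 fold change was 1.67 (SE 0.15, adjusted p = 1.41e-05) in TOM-1, and 1.60 (SE 0.12) without TOM-1 control replicate 3. The RS4;11 change was 0.24 (SE 0.15), at an adjusted p of 1, and of 0.415 without that TOM-1 library. FLCN shares 11.9% of its exonic bases with AC055811.2 on the same strand.

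FNIP1 (ENSG00000217128, chromosome 5, 131641714 to 131797063, minus strand) stood at 50.6, 44.8 and 16.3 CPM in the TOM-1 controls and at 133, 119 and 121 CPM with ADI-PEG20. RS4;11 had 27.5, 26.3 and 24.5 CPM in control and 28.3, 30.2 and 33.3 CPM with the enzyme. The groups were separate in both lines, and TOM-1 control replicate 3 was lower than any RS4;11 library. The log2 fold change in TOM-1 was 1.73 (SE 0.30, adjusted p = 0.00129), and 1.38 (SE 0.10, adjusted p = 1.35e-10) without that library. For RS4;11 it was 0.23 (SE 0.30), at an adjusted p of 1, and of 0.282 without it.

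RefSeq promoters, from 250 bases before to 50 after the start, were found for 7 of the 10 genes: SESN2, SESN3, DDIT4, CASTOR1, RRAGC, FLCN and FNIP1. Among them RRAGC and FNIP1 held the E-box CACGTG, the short form of a site that MiT/TFE factors such as TFEB and TFE3 bind, among other factors. The stretches that hold it are shown because both genes rose in TOM-1, with CACGTG and CCAAT in capitals (GRCh38.p14, each written along the gene's own minus strand).
RRAGC chr1:38859824-38859922, minus strand, 150 to 52 bases before the start: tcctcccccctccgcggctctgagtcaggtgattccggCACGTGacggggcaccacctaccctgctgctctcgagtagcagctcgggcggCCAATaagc
FNIP1 chr5:131797069-131797217, minus strand, 200 to 52 bases before the start: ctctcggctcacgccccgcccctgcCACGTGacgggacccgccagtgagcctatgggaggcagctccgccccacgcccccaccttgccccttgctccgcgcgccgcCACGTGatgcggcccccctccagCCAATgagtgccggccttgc
On either strand, CACGTG occurred in 7.26% of 35116 human promoters of that length. Among other pathway genes described below, it was held by LAMTOR4 and NPRL3, which fell in TOM-1, and by KICS2, which rose. It was also held by RRAGB and LAMTOR1, which were not called in TOM-1 with all libraries. The longer TCACGTGA, which contains CACGTG, occurred in 0.98%, and TGATGNAA, the core of the element bound by ATF4 with C/EBP partners, in 3.62%. GTAAACA, a core of FOXO sites, occurred in 3.42%. None of the 7 promoters held any of these 3. CCAAT occurred in 34.6% of all promoters and in 5 of the 7, those of SESN2, RRAGC, FNIP1, DDIT4 and CASTOR1. A match describes letters in this window and says nothing of binding.

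RNF152 (ENSG00000176641, chromosome 18, 61808063 to 61894247, minus strand) encodes a lysosomal ubiquitin ligase that acts on RagA and restrains mTORC1. It had 0 counts in all 3 TOM-1 controls, and 21, 49 and 29 counts with ADI-PEG20, which is 0.899, 1.87 and 1.14 CPM. In RS4;11 it stood at 18.2, 19.9 and 17.8 CPM in control and at 20.1, 18.6 and 18.1 CPM with the enzyme. The TOM-1 groups did not overlap, while the RS4;11 groups did, and all RS4;11 libraries lay far above all TOM-1 libraries. Taking 3 counts per library as the most that a library at 0 allows, 0.123 CPM, the treated TOM-1 mean of 1.30 ± 0.506 CPM (SD, n = 3) was at least 10.6-fold higher. That comparison passed the threshold (adjusted p = 2.74e-05, and 7e-08 when TOM-1 control replicate 3 was left out). Such a limit covers counting error alone, because reads that carry no molecular identifier need not be independent molecules. In RS4;11 the log2 fold change was 0.02 (SE 0.23, adjusted p = 1). By level, the response of RNF152 in TOM-1 was thus small, since the treated mean remained below the RS4;11 mean by 3.85 on the log2 scale (SE 0.27, adjusted p = 1.52e-06).

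DDIT4 (ENSG00000168209, chromosome 10, 72273920 to 72276036, plus strand), also called REDD1, is the brake that works through TSC. It stood at 145, 139.9 and 155 CPM in the TOM-1 controls and at 374, 356 and 342 CPM with ADI-PEG20. Its levels in RS4;11 were 83.5, 67.2 and 75.9 CPM in control and 86.7, 88.2 and 83.6 CPM with the enzyme. Treated libraries lay above all controls in both lines, although in RS4;11 the lowest treated and the highest control library nearly met. The log2 fold change was 1.29 (SE 0.11, adjusted p = 1.31e-05) in TOM-1, and 1.33 (SE 0.08) without TOM-1 control replicate 3. For RS4;11 it was 0.19 (SE 0.11), at an adjusted p of 1, and of 0.248 without that TOM-1 library. On the opposite strand, DDIT4-AS1 covers 41.2% of the exonic bases of DDIT4. The use of strand in counting is not given in the sources used here, so reads of the pair cannot be told apart.

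DEPTOR (ENSG00000155792, chromosome 8, 119873717 to 120050913, plus strand), the inhibitor that binds mTOR, was near the detection limit. Its raw counts were 6, 0 and 4 in the TOM-1 controls and 15, 10 and 4 with ADI-PEG20. In RS4;11 they were 37, 27 and 9 in control and 25, 19 and 8 with the enzyme. The treated and control libraries overlapped in both lines. The fitted log2 fold change was 1.58 (SE 0.98, adjusted p = 0.251) in TOM-1, and 2.03 (SE 1.10, adjusted p = 0.155) without TOM-1 control replicate 3. For RS4;11 it was -0.42 (SE 0.88, adjusted p = 1). A change in either direction was not detectable at these counts.

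In RS4;11, none of the 10 genes passed the threshold, and neither did any other of the 17349 genes tested (0.0%). An unadjusted p under 0.05 was reached by 325 of those genes, among them RRAGC. DESeq2 called 0 genes and limma voom with sample weights called 17. Without TOM-1 control replicate 3, edgeR called 58 genes (0.317%), again with none of the 10, and DESeq2 called 407, among them SESN3. An unadjusted p under 0.05 was then reached by 2207 of 18321 genes with edgeR and by 2191 with DESeq2. With all libraries, DESeq2 gave 500 such genes and voom gave 2202. In edgeR all groups share 1 estimate of the spread, which that TOM-1 library enters. Missing calls in RS4;11 in the full fit therefore do not show that a gene did not respond. Over the 10 genes the median log2 fold change was 0.18, against 0.00 over all genes tested. Treated RS4;11 libraries lay above all controls for 4 genes (SESN2, DDIT4, FLCN and FNIP1) and below all controls for RRAGC, while for the other 5 they overlapped. Over all genes, 16.8% had groups that did not overlap in this comparison, 7.72% higher and 9.05% lower. In TOM-1 the corresponding count was 8 of 10, all higher, against 46.2% of all genes in either direction and 26.1% higher.

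**Figure D2:**
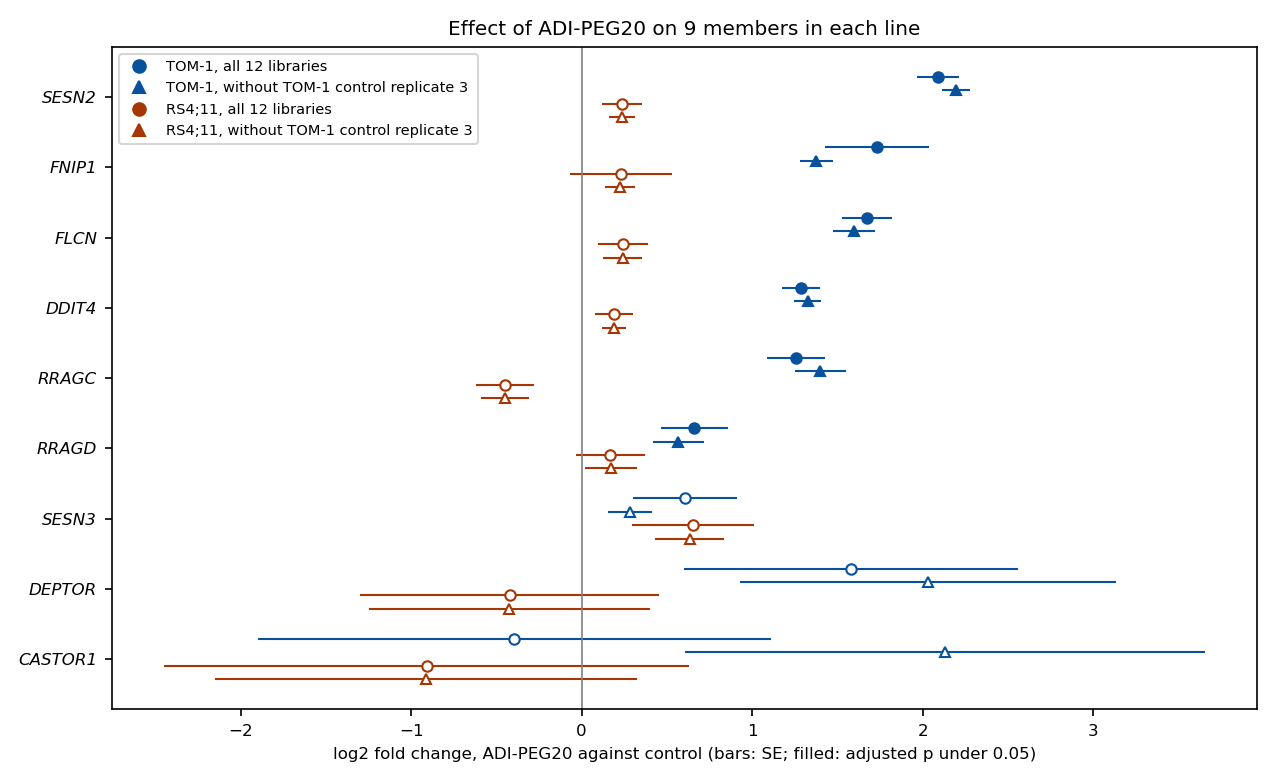
Log2 fold change with ADI-PEG20 against control (horizontal axis) for 9 genes (vertical axis), in TOM-1 and RS4;11, from the full fit (circles) and from the fit that leaves out TOM-1 control replicate 3 (triangles). Bars are standard errors and filled symbols passed an adjusted p of 0.05. Filled symbols occur only for TOM-1, and RNF152 is left out because its TOM-1 controls are at 0.

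The difference between the effects in TOM-1 and RS4;11 was tested as an interaction over all 12 libraries, in which 11.9% of all genes were called and 5.89% had the more positive and 6.05% the more negative effect in TOM-1. It passed the threshold for 6 of the 10 genes, all with the more positive effect in TOM-1. The difference in log2 fold change was 1.85 for SESN2 (SE 0.17, adjusted p = 9.52e-05), 1.71 for RRAGC (SE 0.24, adjusted p = 0.00131) and 1.43 for FLCN (SE 0.21, adjusted p = 0.00135). It was 1.10 for DDIT4 (SE 0.15, adjusted p = 0.0013) and 1.51 for FNIP1 (SE 0.42, adjusted p = 0.0392). RNF152 also passed (adjusted p = 2.71e-04), and its size rests on TOM-1 controls at 0. Without TOM-1 control replicate 3 the same 6 genes passed, against 30.4% of all genes, of which 15.7% in all had the more positive effect in TOM-1. The FNIP1 difference was lost in 9 fits that each left out a treated TOM-1 or an RS4;11 library, with an adjusted p of up to 0.102, and was 1.15 (adjusted p = 4.99e-07) without TOM-1 control replicate 3. For RRAGD the difference was 0.49 (SE 0.28, adjusted p = 0.292) and for SESN3 -0.05 (SE 0.46, adjusted p = 1). The RRAGD difference passed in 1 alternative, with replicate numbers as a block and TOM-1 control replicate 3 left out (0.52, adjusted p = 0.0130), and in no other. For DEPTOR (2.00, SE 1.31) and CASTOR1 (0.52, SE 2.14) the standard errors were too wide to read a direction.

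In control culture, 7 of the 10 genes differed between the lines, 5 higher and 2 lower in TOM-1, against 34.7% of all genes (16.2% higher, 18.4% lower). The higher genes were SESN3, RRAGD, SESN2, DDIT4 and FLCN, and the lower ones were RNF152 and DEPTOR. These values use the same TOM-1 controls as the effects of ADI-PEG20 in TOM-1. The log2 difference was 1.81 for RRAGD (SE 0.21, adjusted p = 2.37e-05), 1.04 for SESN2 (SE 0.12, adjusted p = 2.79e-05) and 0.96 for DDIT4 (SE 0.11, adjusted p = 2.78e-05). When TOM-1 control replicate 3 was left out these were 1.90, 0.93 and 0.91. RNF152 was lower in the TOM-1 controls by a factor of at least 152, against the same limit of 3 counts per library. DEPTOR was lower in TOM-1 by a fitted 2.98 (adjusted p = 0.0346, and 0.0135 without TOM-1 control replicate 3), and 7 of the fits that left out 1 library lost that call. FLCN was higher by 0.42 (SE 0.15, adjusted p = 0.0419), and 11 of the 12 fits that left out 1 library lost that call, with an adjusted p of up to 0.237. FNIP1 was not called with all libraries (0.52, adjusted p = 0.213), and was higher in TOM-1 without TOM-1 control replicate 3 (0.87, adjusted p = 9.17e-08), where 8 of the 10 genes were called against 52.8% of all genes. RRAGC did not pass with or without that library (adjusted p = 0.0708 and 0.115).

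With ADI-PEG20 present, 8 of the 10 genes differed between the lines, 7 higher and 1 lower in TOM-1, against 47.2% of all genes (23.1% higher, 24.0% lower). The log2 difference was 4.53 for SESN3, 2.89 for SESN2, 2.31 for RRAGD and 2.14 for RRAGC. It was 2.05 for DDIT4, 2.02 for FNIP1 and 1.85 for FLCN, and RNF152 was the 1 lower gene. For the 7 higher genes and RNF152 the 3 libraries of each line did not overlap, as was the case for 70.6% of all genes, with 35.7% higher and 34.9% lower. Without TOM-1 control replicate 3, 8 of the 10 were called against 62.9% of all genes. CASTOR1 (0.69, adjusted p = 0.747) and DEPTOR (-0.98, adjusted p = 0.406) were not called. The order of the groups for SESN2, DDIT4, FLCN and FNIP1 was treated TOM-1, TOM-1 control, treated RS4;11 and RS4;11 control by mean, with no call between the RS4;11 groups. For FNIP1, TOM-1 control and RS4;11 control overlapped with all libraries in use.

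Per kilobase of exon, taking all annotated exonic bases of a gene as its length, DDIT4 was the most abundant of the 10 in every group, at 71.3 CPM per kb in TOM-1 control and 174 CPM per kb in treated TOM-1. SESN2 came next, at 14.0 and 59.3 CPM per kb in TOM-1, and at 6.78 and 7.98 CPM per kb in control and treated RS4;11. FNIP1 went from 4.69 to 15.6 CPM per kb in TOM-1 and FLCN from 2.33 to 7.45, and without TOM-1 control replicate 3 their control levels were 6.01 and 2.47. RRAGD stood at 11.2 and 17.7 CPM per kb in control and treated TOM-1, and RRAGC at 3.03 and 7.24. The lower level in treated TOM-1 of CASTOR1 (0.173 CPM per kb), DEPTOR (0.150) and RNF152 (0.123) set these 3 apart from the other 7, which all exceeded 7 CPM per kb there. In RS4;11 control, RNF152 (1.75 CPM per kb) was instead level with FLCN (1.74).

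Several paralogs of the 10 genes also differed between the lines. SESN1, the remaining Sestrin, stood at 16.2, 18.9 and 16.8 CPM in the TOM-1 controls and at 54.7, 49.0 and 44.2 CPM in the RS4;11 controls, without overlap. Its log2 difference in control culture was -1.51 (SE 0.13, adjusted p = 2.37e-06), opposite in sign to SESN2 and SESN3. With ADI-PEG20 it stood at 19.3, 19.9 and 17.7 CPM in TOM-1, with a log2 fold change of 0.13 (adjusted p = 0.486). FNIP2, the alternative partner of FLCN, had 5, 8 and 0 counts in the TOM-1 controls and 1, 12 and 1 with ADI-PEG20, and stood at 25.7, 27.1 and 21.8 CPM in the RS4;11 controls. FNIP1 had at least 295 counts in each TOM-1 library, and FNIP2 at most 12. DDIT4L, the paralog of DDIT4, had 0 counts in all 6 TOM-1 libraries and was lower there by a factor of at least 5.60 in control culture than in RS4;11, where it stood at 0.601, 0.742 and 0.717 CPM. CASTOR2, the paralog of CASTOR1, was well expressed, at 26.4, 29.1 and 38.4 CPM in the TOM-1 controls and 16.7, 18.5 and 20.6 CPM with ADI-PEG20. It fell by 0.75 on the log2 scale in TOM-1 (SE 0.17, adjusted p = 0.00556). Leaving out TOM-1 control replicate 3 made that fall 0.58. Its RS4;11 levels were 24.7, 21.7 and 26.8 CPM in control and 16.9, 19.7 and 20.7 CPM with the enzyme, again without overlap, but the change of -0.35 was not called (adjusted p = 1). Unlike the other paralogs here, CASTOR2 was not called between the lines with all libraries.

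**Figure D3:**
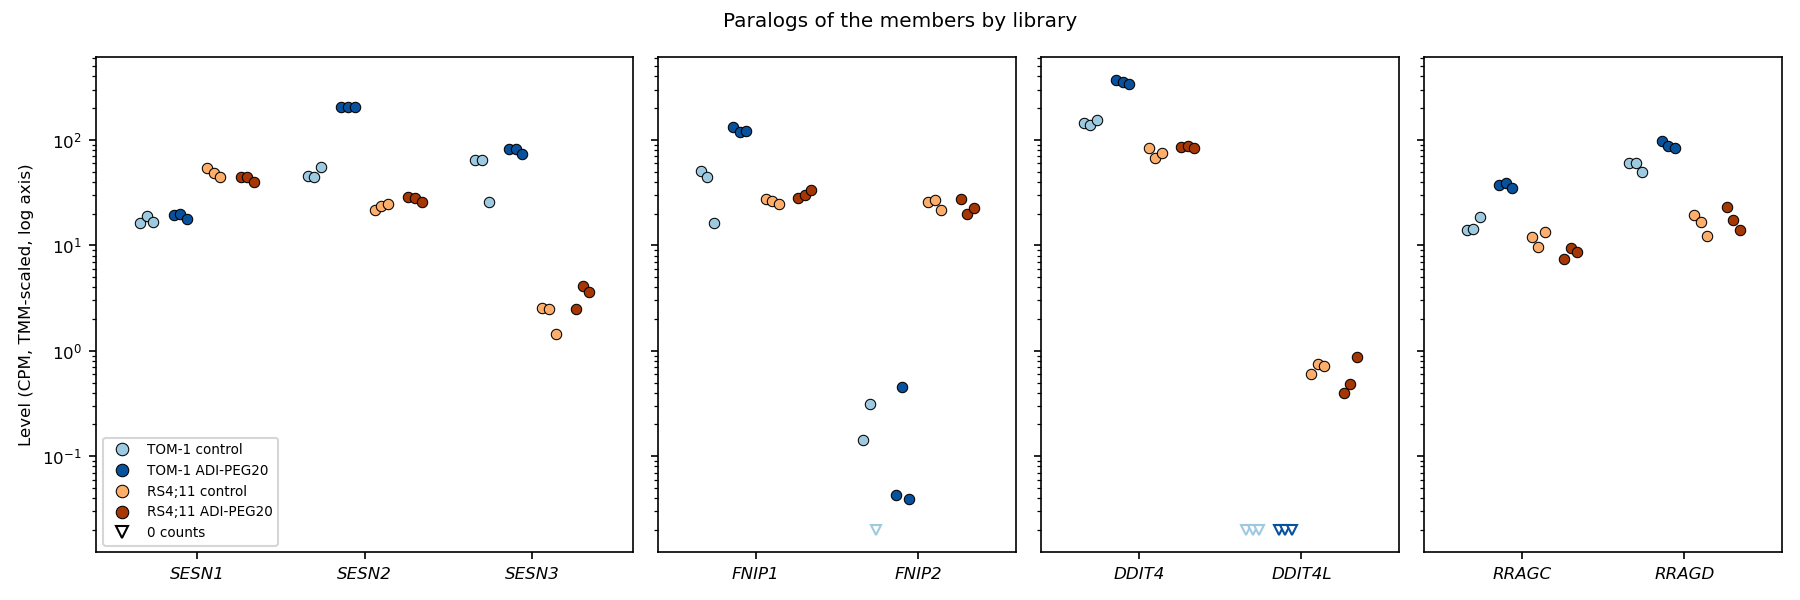
Levels of paralogous genes in every library, in TMM-scaled CPM on a logarithmic vertical axis, with genes on the horizontal axes and colours for line and treatment. Points are libraries and open triangles are libraries with 0 counts. SESN1 and FNIP2 are higher in RS4;11 than in TOM-1 in every library, and DDIT4L is at 0 in all 6 TOM-1 libraries.

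Another 61 genes, in 9 lists, were examined in the same way, and 59 of them were tested. GPNMB and PPARGC1A, at 0 to 5 counts per library, were not. The last list, of 12 target genes of MiT/TFE factors with 10 tested, lies outside the pathway. Its genes are included wherever other pathway genes are counted together. In TOM-1, 26 of the 59 were called with ADI-PEG20, 10 higher and 16 lower, with a median log2 fold change of 0.00. Over all genes 31.9% were called, 15.9% higher and 15.9% lower, and the counts for each list below are read against these shares. Without TOM-1 control replicate 3, 37 were called, 19 higher and 18 lower, against 41.6% of all genes, 21.8% higher and 19.8% lower. In RS4;11 none was called in either fit. The called genes are given below by complex, as log2 fold changes with all libraries in use unless stated.

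All 3 subunits of GATOR1, the complex that switches Rag signalling off, fell in TOM-1. NPRL2 stood at 24.6, 27.7 and 33.5 CPM in control and 16.9, 17.5 and 18.5 CPM with ADI-PEG20, and its groups did not overlap. It fell by 0.70 on the log2 scale (adjusted p = 0.00391), DEPDC5 by 0.51 (adjusted p = 0.011) and NPRL3 by 0.49 (adjusted p = 0.0289), and without TOM-1 control replicate 3 they fell by 0.57, 0.54 and 0.34. The difference from RS4;11 was not called for any of the 3 with all libraries, and for NPRL2 and DEPDC5 it was called without that library. Of the 5 GATOR2 subunits, 3 fell and none rose, with WDR59 falling by 0.56 and SEC13 by 0.53. When TOM-1 control replicate 3 was left out, SEC13 fell by 0.29, and MIOS rose by 0.36 (adjusted p = 0.0265). In KICSTOR, the scaffold of GATOR1, KICS2 rose by 0.70 (adjusted p = 0.00809) and the other 3 genes were not called.

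Of the other Rag and Ragulator genes, 4 of 8 fell in TOM-1 and none rose, in contrast to RRAGC and RRAGD. LAMTOR2 and LAMTOR4, subunits of the Ragulator that anchors the Rags on the lysosome, fell by 1.30 and 1.15, but these sizes rested on TOM-1 control replicate 3. LAMTOR4 stood at 49.5, 55.0 and 175 CPM in the TOM-1 controls and at 39.0, 46.8 and 39.7 CPM with ADI-PEG20, and without replicate 3 the falls were 0.50 and 0.32 and still called. LAMTOR5 fell by 1.04, and by 0.71 without that library, and its effect differed from that in RS4;11 by -1.03 (adjusted p = 0.0332), or by -0.70 without it. RRAGA, whose product pairs with RagC or RagD, fell by 0.46 (0.44 without that library). Among TSC and RHEB genes, TSC1 rose by 1.03 (adjusted p = 0.00815), or 0.73 when that library was left out, and the other 4 were not called with all libraries.

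Of the mTOR complex subunits, RICTOR, which defines mTORC2, rose by 1.07 in TOM-1 (0.75 without TOM-1 control replicate 3) and 4 of 8 fell, MLST8 by 0.71 (0.29 when that library was left out) and MAPKAP1 by 0.64. RPTOR, which defines mTORC1, stood at 108, 112 and 101 CPM in the TOM-1 controls and at 78.7, 71.4 and 73.9 CPM with ADI-PEG20, and its effect differed from that in RS4;11 by -0.54 (adjusted p = 0.0349). Of 11 substrates, 3 rose and 1 fell. GRB10, an adaptor that mTORC1 phosphorylates, rose by 1.22 (adjusted p = 1.99e-04), from 99.3, 103 and 64.3 CPM to 210.5, 212 and 196 CPM, and by 1.03 without that library. RPS6KB1 rose by 0.73 (0.49 without it) and TFE3 by 0.70, and ULK1, the kinase that starts autophagy, fell by 0.59. When that library was left out, 5 were higher and 3 lower. The genes added were TFEB, higher by 0.74, EIF4EBP1, higher by 0.50, EIF4EBP2, which fell by 0.66, and LARP1, which fell by 0.32.

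Of 10 tested target genes of MiT/TFE factors, 3 rose in TOM-1 and none fell, where 15.9% of all genes were called higher. SQSTM1, the autophagy receptor, rose by 1.08 and UVRAG, which acts in autophagosome maturation, by 1.29. WIPI1, an early autophagy protein, had 0, 3 and 0 counts in the TOM-1 controls and 61, 78 and 93 counts with ADI-PEG20, and passed the threshold (adjusted p = 2.14e-04). Without TOM-1 control replicate 3, 6 of the 10 were higher, against 21.8% of all genes, with CTSD, NEU1 and ATP6V1H added at 0.68, 0.57 and 0.47. CTSD stood at 35.9, 39.1 and 109.6 CPM in the TOM-1 controls and at 63.3, 54.5 and 62.7 CPM with ADI-PEG20, so that its call turned on that 1 library. BMT2, the sensor of S-adenosylmethionine, rose by 1.29 (adjusted p = 0.00167), from 11.5, 12.9 and 5.68 CPM to 24.2, 23.7 and 26.2 CPM, and by 1.02 without that library.

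**Figure D4:**
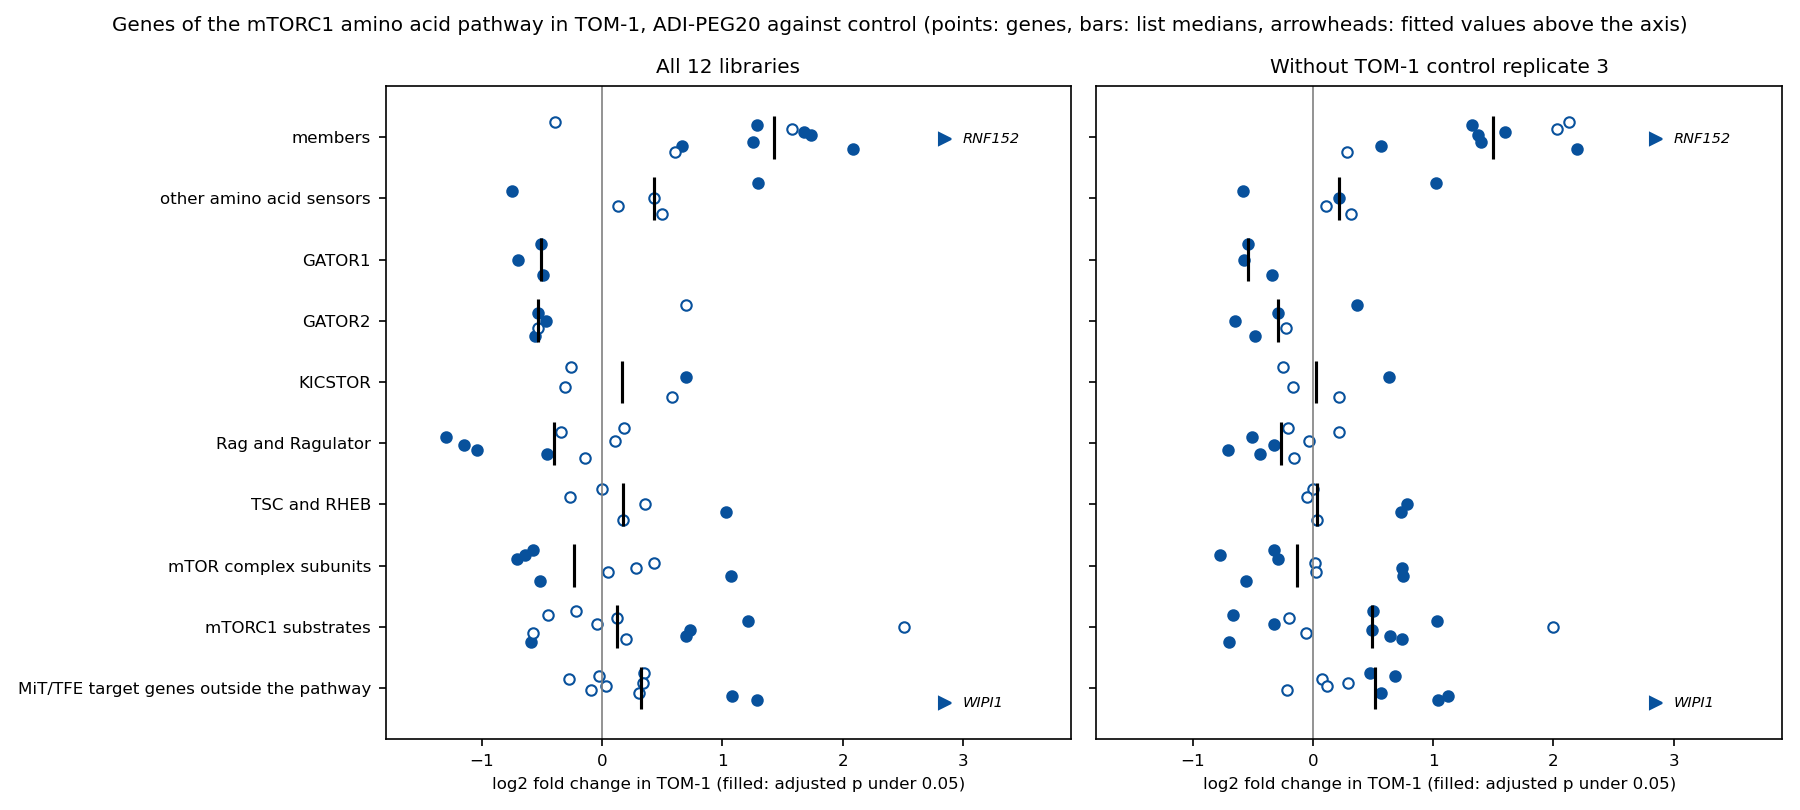
Log2 fold change with ADI-PEG20 in TOM-1 (horizontal axes) for the 10 genes (members) and the 9 lists of other genes (vertical axis). The full fit is on the left, and the fit without TOM-1 control replicate 3 is on the right. Points are genes, filled where the adjusted p was under 0.05, bars are list medians, and arrowheads mark fitted values above the axis. All called members lie to the right of 0, and all 3 GATOR1 genes lie to the left.

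For each of the 10 genes, the genes with the most similar pattern were found by Pearson's r of log2 CPM over the 11 libraries other than TOM-1 control replicate 3, among 10550 genes. The libraries form 4 groups, so these values mostly describe group means. SESN2 was most like ERN1 and KIF21B (r = 0.998 for each), and ERN1 had means of 13.7 CPM in TOM-1 control, 189 in treated TOM-1, 6.55 in RS4;11 control and 7.42 in treated RS4;11. DDIT4 and FNIP1 shared SECISBP2L as the closest gene (0.998 and 0.997), followed by RYBP (0.996) and SYT1 (0.997). RRAGC was closest to TNFRSF10B (0.988) and PLEKHM2 (0.986), FLCN to DCP1A (0.991) and SDCCAG8 (0.990), and RRAGD to CCDC93 (0.997) and SLC38A1 (0.996). SESN3 was closest to GLI3 (0.998) and EMILIN2 (0.996), and RNF152 to BALR6 (0.997) and LITAF (0.994). DEPTOR (DHRS7, 0.968, and TOMM70, 0.957) and CASTOR1 (NELFE, 0.862, and MPV17, 0.749) had the weakest likeness, at counts too low to carry a pattern.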

How the data were processed

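The deposited table holds raw counts, that is whole numbers of reads per Ensembl gene without normalization. Per the labels, RNA was extracted by column and selected by poly(A) capture. Per the submitters' processing notes, STAR, SAMtools, featureCounts and the build hg38 were used. The annotation release, strand setting and treatment of overlapping genes are not given in the sources used here. Symbols were found for 60463 identifiers and positions for 58396 (GENCODE release 29, GRCh38).

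The fits used edgeR 4.0.16 under R 4.3.3, with filterByExpr, TMM scaling, 1 group-means model over 12 libraries, glmQLFTest and Benjamini-Hochberg adjustment over all tested genes. The SE is the log2 difference divided by the square root of F. The 5 contrasts were each line's treatment effect, their difference, and the lines compared in each condition. Alternatives included DESeq2 1.42.0 and voom in limma 3.58.1. The fits were also run on simulated counts with changes set only in treated TOM-1. That outcome is not reported here, and no result above rests on it. Figures used matplotlib 3.10.9.

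Members and lists were chosen with earlier results of these data known. All 10 members were named, with up to 2 genes per direction, list and contrast that passed with and without TOM-1 control replicate 3, and the 2 genes most like each member (mean of at least 5 CPM, prior count 2). NPRL3, MIOS, LAMTOR5, RRAGA, RPTOR, TFE3, TFEB, EIF4EBP1, EIF4EBP2, LARP1, SQSTM1, CTSD, NEU1 and ATP6V1H were named for TOM-1 after their values were seen.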

Additional observations from a re-analysis of the deposited data

Results flagged for a closer look

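The effect of ADI-PEG20 differed between the lines, by the test of the difference itself, for 6 of the 10 genes, each with a more positive effect in TOM-1. The differences in log2 fold change were 1.85 for SESN2, 1.71 for RRAGC, 1.51 for FNIP1, 1.43 for FLCN and 1.10 for DDIT4. For RNF152 the fitted difference was 7.95, which rests on 0 counts in all TOM-1 controls and is not a measured size. RRAGC was the only 1 of the 6 whose libraries moved apart in opposite directions, above all controls in TOM-1 and below all controls in RS4;11. Its RS4;11 change of -0.45 was not called in the full fit or in any of the 22 alternatives. Of all genes tested, 9.05% had treated RS4;11 libraries below all controls.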

How the results depend on the processing

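Recomputed under the alternatives, 191 counts of called genes stayed within 1.5 times the value reported and 27 moved. For the 10 genes 1018 values kept their direction and side of the threshold, 35 lost a call, 8 gained one and 26 changed sign, 0 of which were called in either fit. In fits leaving out 1 library, members called ranged from 6 to 7 in TOM-1, 5 to 6 for the difference in effect, 5 to 8 between controls and was 8 between treated lines throughout. In those fits CASTOR1 ranged from -1.79 to 2.13 in TOM-1, -0.90 to 3.04 for the difference in effect, -2.36 to 0.69 between controls and -0.76 to 2.15 between treated lines. The SESN3 difference ranged from -0.35 to 0.13, and the RS4;11 effect from -0.788 to 0.0172 for DEPTOR, -0.0340 to 0.327 for RRAGD and -0.0186 to 0.0732 for RNF152. CASTOR1 changed sign in TOM-1 with voom weights (0.45), the replicate block (0.55) and without TOM-1 control replicate 3 (2.13), also with DESeq2 (2.17) or the block (2.62) added. Between controls it did so in the same fits (-2.25, -0.17, -2.36, -2.42, -2.44), and between treated lines with voom (-0.0214). The cause was not tested.

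Of the other pathway genes, 26 were called in TOM-1, against 40 with voom weights, 11 with only the 6 libraries compared and 17 to 37 leaving out 1 library. For the difference in effect the count was 8, against 31 with voom and 4 to 29 leaving out 1 library. Between controls it was 20, against 35 with voom, 12 with 6 libraries and 15 to 36 leaving out 1 library. Between treated lines it was 29, against 45, 46 and 24 to 47. DESeq2 without TOM-1 control replicate 3, chosen after seeing the data, called 1 member (SESN3) and 1 other pathway gene (TBC1D7, named after its value was seen) in RS4;11, and 29, 32 and 47 other genes in the last 3 contrasts.

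Deviations of same-numbered libraries correlated from -0.0623 to 0.145 (18 pairs), and those of differently numbered libraries from -0.0955 to 0.0696 (36 pairs). The highest value, 0.145, was between replicate 3 of RS4;11 control and replicate 3 of treated RS4;11. What same-numbered libraries share is not given in the labels and was not tested. With the numbers as a replicate block, the counts of members called were 7 in TOM-1, 0 in RS4;11, 6 for the difference in effect, 5 between controls and 8 between treated lines. With the block and without TOM-1 control replicate 3, also chosen after seeing the data, the last 3 contrasts gave 32, 35 and 46 other pathway genes. A fit on 6 libraries was not run for the difference in effect, which needs all 4 groups. Low depth limits CASTOR1 and DEPTOR, at 0 to 37 counts.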
